A study of Mus musculus with 6 samples.

Results

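The platelet-derived growth factor (PDGF) family consists in the mouse of 4 ligand genes, Pdgfa, Pdgfb, Pdgfc and Pdgfd, and 2 receptor genes, Pdgfra and Pdgfrb. These 6 genes were taken as a list by name, from 19938 genes measured in 6 mouse gliomas on Affymetrix arrays, with 1 array per tumour. Each was read by 1 probe set, a group of array probes for a transcript, that names no other gene. The tumours were grown under the skin of the flank of Nu/Nu mice, a strain without a thymus, from implanted glioma cells. The implanted cells were driven by a mutant form of EGFR, the epidermal growth factor receptor. The groups were 3 control gliomas, numbered 1, 2 and 4 in the labels, and 3 gliomas that had relapsed after the mutant receptor was extinguished, numbered 1, 2 and 3. Tumours were taken at 2 cm3, from mice whose drinking water held either no doxycycline or 2 g/L of it. The labels used here do not assign the drug to a group, and give no genotype of the cells, no promoter of the mutant receptor and no age of the mice. They name 6 separate gliomas but do not say whether each came from its own mouse. The p-values below therefore measure only the spread between these tumours, which may not be that between mice.

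PDGF ligands are disulphide-linked dimers that bring receptor chains together, which then phosphorylate each other and recruit signalling proteins. PDGF-A and PDGF-B are cut to their mature form inside the cell. PDGF-C and PDGF-D are secreted with an inhibitory CUB domain that proteases outside the cell remove. PDGFR-alpha binds the A, B and C chains and is a growth factor receptor of oligodendrocyte progenitors and of proneural glioma, among other cells. PDGFR-beta binds the B and D chains and is typical of pericytes, smooth muscle and fibroblasts. In human glioblastoma cells, PDGFRB has been reported to be transcribed more when EGFR signalling is inhibited.

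Pdgfc was the only PDGF gene that passed the test for a change: it rose 3.51-fold in relapsed tumours. The other 5 genes did not pass the test. The differences of 4 of them were above 0, at 0.64 for Pdgfra, 1.20 for Pdgfrb, 0.62 for Pdgfb and 1.82 for Pdgfd on the log2 scale, and that of Pdgfa was -0.71. A gene was called when its p-value in limma was under 0.05 after Benjamini-Hochberg adjustment over the 19938 genes. Over all genes, 9.16% were called, 3.69% as risen and 5.47% as fallen, and the median difference was -0.02. With each array centred on its median, 29.2% of called genes were rises, against 40.3% as deposited. The groups did not overlap for 4 of the 6 PDGF genes, Pdgfb, Pdgfc, Pdgfd and Pdgfrb, against 30.8% of all genes, and in all 4 the relapsed tumours were higher, as in 13.0% of all genes. Of all genes, 0.461% had a difference above that of Pdgfc, which ranked 71 among the 735 risen genes, and 4.62% had a difference below that of Pdgfa.

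RefSeq (GRCm38.p6) promoter windows were found for 4 of the 6 genes, Pdgfa, Pdgfc, Pdgfd and Pdgfra. The 250 bases before the start site are shown for Pdgfc, the gene called as risen, and for Pdgfa, the ligand whose difference had the opposite sign. The Pdgfc window is chr3:81036166-81036415 on the plus strand. The Pdgfa window is chr5:138994945-138995194 on the minus strand, the more upstream of 2 start sites. Both are written 5′ to 3′ in the direction of transcription, and capitals mark matches to the motifs searched.

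Pdgfc: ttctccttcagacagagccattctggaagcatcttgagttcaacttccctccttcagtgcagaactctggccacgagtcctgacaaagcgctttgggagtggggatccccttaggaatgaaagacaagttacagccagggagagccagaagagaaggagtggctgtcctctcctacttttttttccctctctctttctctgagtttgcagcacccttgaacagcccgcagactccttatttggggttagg

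Pdgfa: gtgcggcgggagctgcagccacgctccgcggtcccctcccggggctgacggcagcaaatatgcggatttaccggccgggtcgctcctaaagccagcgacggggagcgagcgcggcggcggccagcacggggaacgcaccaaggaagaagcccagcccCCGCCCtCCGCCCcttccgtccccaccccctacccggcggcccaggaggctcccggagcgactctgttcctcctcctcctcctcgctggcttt

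The motifs were the Sp1 GC box GGGCGG, the TATA box TATAAA, the CCAAT box CCAAT, the AP-1 site TGANTCA, the EGR site GCGNGGGCG, the ETS core CCGGAA and the FoxO site GTAAACA, each on both strands. The Pdgfa window held 2 GC boxes, both on the opposite strand, and no other motif. The second Pdgfa window held 1 GC box. A GC box is present in 32.7% of all 32851 windows of this length. The Pdgfc and Pdgfra windows held none of the 7 motifs, and the Pdgfd window held 1 TATA box, which 12.4% of windows hold. The GC content was 72.4% in the Pdgfa window shown and 50.8% in that of Pdgfc, against a median of 52.4% over all windows. A match or its absence describes these letters only.

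Pdgfc encodes the ligand of PDGFR-alpha that is activated outside the cell, and its level separated the groups. Its log2 signal was 8.68, 8.25 and 8.43 in control 1, 2 and 4 and 10.57, 10.09 and 10.15 in relapsed 1, 2 and 3. All relapsed tumours stood above all control tumours, by at least 1.41 on this scale, and no tumour stood apart from its group. The mean rose from 8.45 ± 0.22 (SD, n = 3) to 10.27 ± 0.26, a difference of 1.81 ± 0.17 (SE) with a 95% interval of 1.38 to 2.24 (limma, adjusted p = 0.0108). The call held with 5 of the 6 arrays left out in turn and was lost without control 4, where the difference was 1.80 and the adjusted p 0.0512. In bulk tumour RNA, more cells that transcribe a gene and more transcript per cell cannot be told apart.

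Pdgfd, which encodes the PDGFR-beta ligand of the same protease-activated type, had a difference of the same size but was far less even. Its signal was 6.67, 6.08 and 6.21 in control 1, 2 and 4 and 8.01, 6.90 and 9.51 in relapsed 1, 2 and 3. The groups did not overlap, but relapsed 2 stood only 0.23 above control 1, whereas relapsed 3 was the highest of all tumours. The difference was 1.82 ± 0.66 (SE), with a 95% interval of 0.17 to 3.48 (limma, adjusted p = 0.157). Without relapsed 3 it was 1.14, with an adjusted p of 0.210. The control level lay near 5.65, the median of probe sets with no gene, so its fold is uncertain.

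Pdgfb encodes the chain that binds both receptors and is made by endothelial cells, platelets and macrophages. Its signal was 8.11, 8.31 and 8.22 in control 1, 2 and 4 and 9.03, 9.15 and 8.32 in relapsed 1, 2 and 3. Relapsed 1 and 2 were high, while relapsed 3 lay at the level of the highest control. The difference of 0.62 ± 0.23 (SE, 95% interval 0.04 to 1.20) had an adjusted p of 0.165 in limma. Without relapsed 3 the difference was 0.88 and passed, with an adjusted p of 0.0433.

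Pdgfa, which encodes a ligand of PDGFR-alpha that drives proliferation of oligodendrocyte progenitors, was the PDGF gene with a lower mean in relapsed tumours. Its signal was 11.63, 11.04 and 11.31 in control 1, 2 and 4 and 10.20, 11.05 and 10.62 in relapsed 1, 2 and 3. Relapsed 2 was level with control 2, so the groups overlapped. The difference was -0.71 ± 0.26 (SE), with a 95% interval of -1.35 to -0.06 (limma, adjusted p = 0.158).

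**Figure D1:**
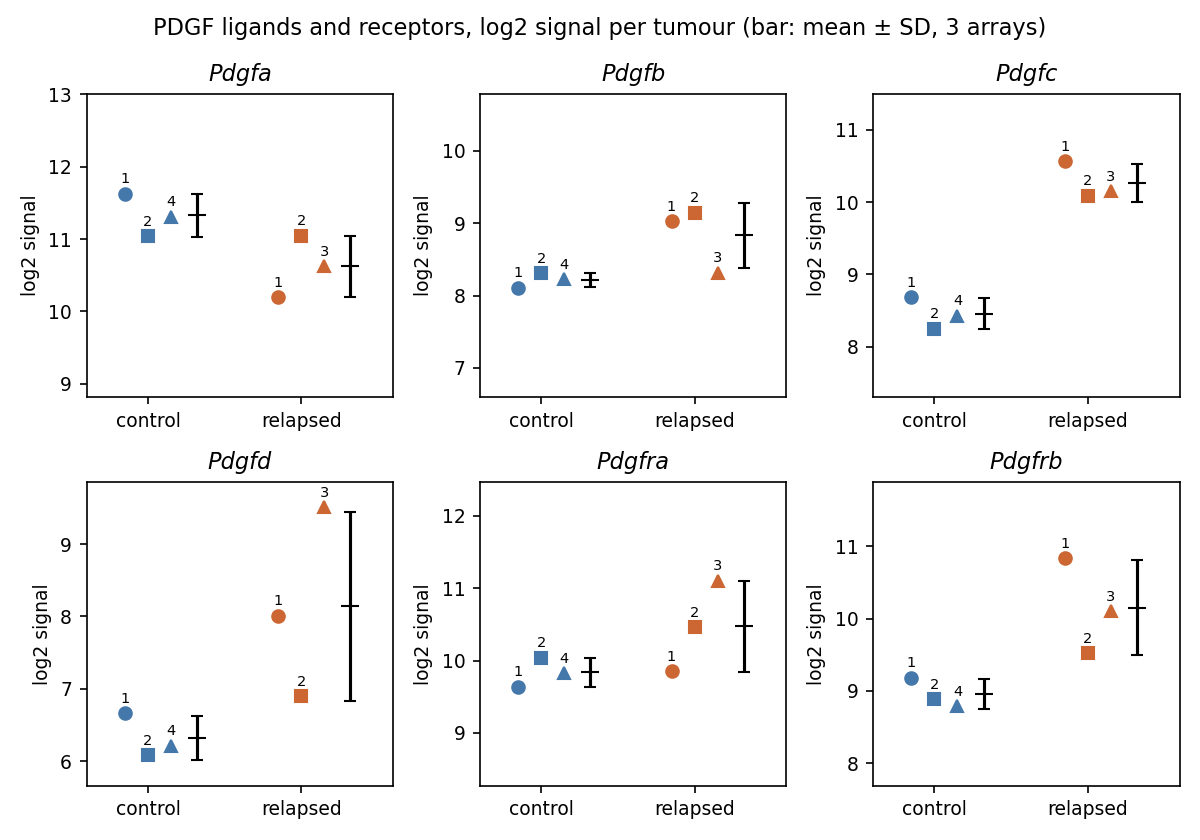
Log2 signal of each PDGF gene (vertical axes, each spanning the same range) in the 3 control and 3 relapsed tumours; points carry the tumour number and bars give mean ± SD. The Pdgfc values of 10.09 to 10.57 in relapsed tumours all lie above the control values of 8.25 to 8.68, whereas Pdgfd runs from 6.90 to 9.51 among relapsed tumours.

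Neither receptor passed the test. Pdgfrb had the larger difference, with signals of 9.18, 8.89 and 8.79 in control 1, 2 and 4 and 10.83, 9.52 and 10.10 in relapsed 1, 2 and 3. All relapsed tumours were above all controls, with relapsed 1 highest. The difference was 1.20 ± 0.34 (SE, 95% interval 0.35 to 2.05), a 2.30-fold higher signal that missed the threshold (limma, adjusted p = 0.0922). It passed at 0.0438 with the dimmer 50% of genes left out, and was 0.86 with an adjusted p of 0.107 without relapsed 1.

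Pdgfra signals were 9.64, 10.04 and 9.83 in control 1, 2 and 4 and 9.85, 10.46 and 11.10 in relapsed 1, 2 and 3. Relapsed 1 lay within the control range and relapsed 3 stood highest, so the groups overlapped. The difference was 0.64 ± 0.33 (SE), with a 95% interval of -0.18 to 1.45 (limma, adjusted p = 0.291). It was 0.32 without relapsed 3. Egfr itself, read by a probe set for the mouse gene, ran from 9.24 to 10.00 in control and from 9.41 to 10.33 in relapsed tumours. It did not pass (adjusted p = 0.658 in limma), and since the labels used here do not give the form of the mutant receptor, this does not check its extinction.

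In all 6 PDGF genes the SD was larger among the relapsed than among the control tumours, but an SD over 3 tumours is imprecise. The share of all genes with a larger SD in relapsed tumours is not given here, so this is not shown to be particular to the family. The ratio of the SD in relapsed to that in control tumours was 1.21 for Pdgfc and 1.44 for Pdgfa, and 3.11, 3.18, 4.25 and 4.46 for Pdgfra, Pdgfrb, Pdgfd and Pdgfb. The median SD over all genes was 0.119 in control and 0.134 in relapsed tumours. The highest relapsed tumour was relapsed 1 for Pdgfc and Pdgfrb, relapsed 2 for Pdgfa and Pdgfb, and relapsed 3 for Pdgfd and Pdgfra.

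**Figure D2:**
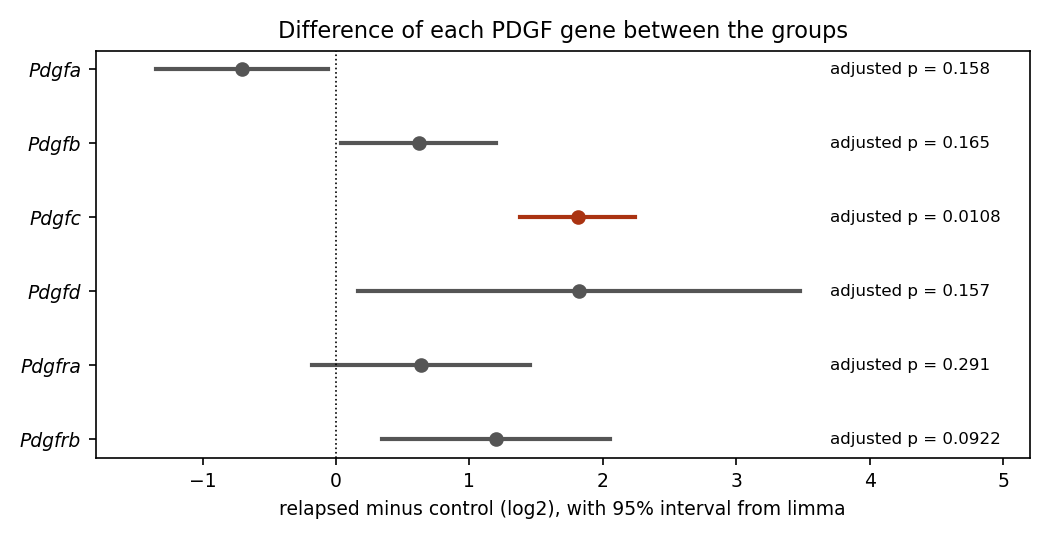
Difference in log2 signal between relapsed and control tumours (horizontal axis) for each PDGF gene, with the 95% interval and adjusted p from limma; the called gene is in red. The interval of Pdgfc runs from 1.38 to 2.24, and that of Pdgfra, from -0.18 to 1.45, includes 0.

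Whether the ligands changed unequally was tested on the difference of a pair of genes within each array, over 6 ligand pairs and the receptor pair. With 3 arrays a group, the two-sided exact permutation test cannot give a p below 0.1. The group difference of Pdgfa minus that of Pdgfb, Pdgfc and Pdgfd was -1.32, -2.52 and -2.53, and that of Pdgfb minus that of Pdgfc was -1.19. These 4 pairs reached the smallest exact p of 0.1, which was 0.175 when adjusted over the 7 pairs, and their 95% intervals from a linear model left out 0. The interval ran from -3.60 to -1.43 for Pdgfa minus Pdgfc, but came close to 0 for Pdgfa minus Pdgfb (-2.45 to -0.20), Pdgfa minus Pdgfd (-5.00 to -0.057) and Pdgfb minus Pdgfc (-2.08 to -0.30). With single arrays left out, it left out 0 in all 6 fits for Pdgfa minus Pdgfc, and in 2, 1 and 2 of 6 for the other three pairs in that order. That of Pdgfb minus Pdgfd, at -1.20, was not larger than the spread between arrays, with an exact permutation p of 0.4 (adjusted 0.56) and an interval of -4.07 to 1.67. Without relapsed 3, Pdgfa minus Pdgfd was -1.84 and Pdgfb minus Pdgfd was -0.26. Pdgfc and Pdgfd had nearly equal mean differences, but the interval of -2.14 to 2.13 allows large ones (exact permutation p = 1, adjusted 1). Without relapsed 3, Pdgfc exceeded Pdgfd by 0.73. The receptor pair gave -0.56 for Pdgfra against Pdgfrb, with an interval of -2.47 to 1.34 and an exact permutation p of 0.5 (adjusted 0.583), and 0.086 without relapsed 1.

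Markers of fibroblasts, macrophages and oligodendrocyte progenitors moved with the groups, and their part in the results above was not tested. Called markers made up 61.5%, 84.6% and 70.0% of these lists, against 9.16% of all genes. Of 13 measured fibroblast markers, 8 rose and none fell, with a median difference of 1.19. In relapsed tumours 10 of them had a higher mean and 3 a lower one, Thy1, Fbln2 and Pi16 (-0.05, -0.32 and -0.15). The mean level of the list was 8.68 to 9.32 in control and 9.86 to 10.81 in relapsed tumours. Its most abundant members Col1a1, Postn and Dcn rose by 1.13, 1.53 and 1.85 (limma adjusted p of 0.0300, 0.0280 and 0.00660). Of 13 macrophage markers 11 rose and none fell, with Lyz2, C1qa and C1qb up by 1.08, 1.40 and 0.64 (adjusted p of 0.00660, 0.0229 and 0.0450). The mean level of that list was 9.14 to 9.41 in control and 10.55 to 10.99 in relapsed tumours. Of 10 oligodendrocyte progenitor markers, 7 fell and none rose, and the mean level was 8.64 to 9.49 in control and 7.13 to 7.35 in relapsed tumours. Ptprz1, Olig1 and Cspg5 fell, with differences of -2.46, -3.52 and -2.18 (adjusted p of 0.00825, 0.0122 and 0.0158). The 3 members not called were Sox10, Gpr17 and Lhfpl3, with differences of -0.14, 0.10 and -1.21. Sox10 lay at 6.62 to 6.95 and Gpr17 at 5.98 to 6.59 over all tumours. Which cells transcribed the genes of this list was not tested. Pdgfra, a receptor of oligodendrocyte progenitors among other cells, was not called and had a difference of 0.64.

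Among 12 measured markers of pericytes and smooth muscle, the cells for which Pdgfrb is best known, none rose and Mcam fell by 0.99 (adjusted p = 0.0158 in limma), so that 8.33% were called, close to the share of all genes. The mean level was 7.87 to 8.30 in control and 7.86 to 8.61 in relapsed tumours, highest in relapsed 1. In that tumour the contractile genes Acta2 and Tagln stood at 12.67 and 10.67, against 10.33 to 11.54 and 7.78 to 8.77 in the controls, but neither was called. Rgs5, a defining pericyte marker, was 7.81 to 8.02 in control and 7.71 to 8.29 in relapsed tumours, and Higd1b was below the median of probe sets with no gene in all 6. Kcnj8, Notch3 and Abcc9 had differences of -0.52, -0.32 and -0.28, and none of them was called. Of the 12 markers, 7 had a higher and 5 a lower mean in relapsed tumours. Of 11 endothelial markers Robo4 fell, by 0.58, and none rose, a share of 9.09% that is also close to that of all genes. The most abundant, Eng, Cdh5 and Emcn, had differences of -0.57, -0.36 and -0.17. Of 6 platelet markers 1 rose, Pf4, at 1.68 ± 0.32 (SE, adjusted p = 0.0389), which macrophages also transcribe, while Itga2b and Treml1 differed by -0.04 and 0.04.

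Single tumours also held markers of neighbouring tissue, whose part in the results was not tested. Relapsed 1, highest for Pdgfrb and Pdgfc, had a mean adipocyte marker level of 9.69, against 6.13 to 6.63 in the other arrays, with Fabp4, the fatty acid-binding protein of fat cells, at 11.22. Relapsed 3, highest for Pdgfd and Pdgfra, had a mean keratinocyte marker level of 7.45, against 5.62 to 5.84, with the basal keratin gene Krt14 at 8.58. Control 2 had a mean skeletal muscle marker level of 9.54, against 7.07 to 7.73, with skeletal actin Acta1 at 11.25. None of the genes of these 3 lists was called. The rise of Pdgfc was 1.66 without relapsed 1, 1.87 without relapsed 3 and 1.71 without control 2, and was called in each of these fits. Of 10 glial and neural stem cell genes, the most abundant were Vim at 13.42 to 13.56, Nes at 10.92 to 12.28 and Fabp7 at 9.95 to 13.00. They were picked for their level, so lying well above 5.65 in every tumour does not check the glioma label. Vim and Nes are also transcribed by stromal cells. Some astrocyte genes of the list lay lower, with Aqp4 at 5.97 to 7.80, Aldh1l1 at 6.27 to 7.30 and S100b at 6.79 to 7.51. Others, Gfap at 8.63 to 10.73 and Slc1a3 at 9.49 to 11.49, were also well above 5.65 in every tumour. Of the 10 genes 3 fell, Fabp7, Slc1a3 and Sox9, and none rose.

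**Figure D3:**
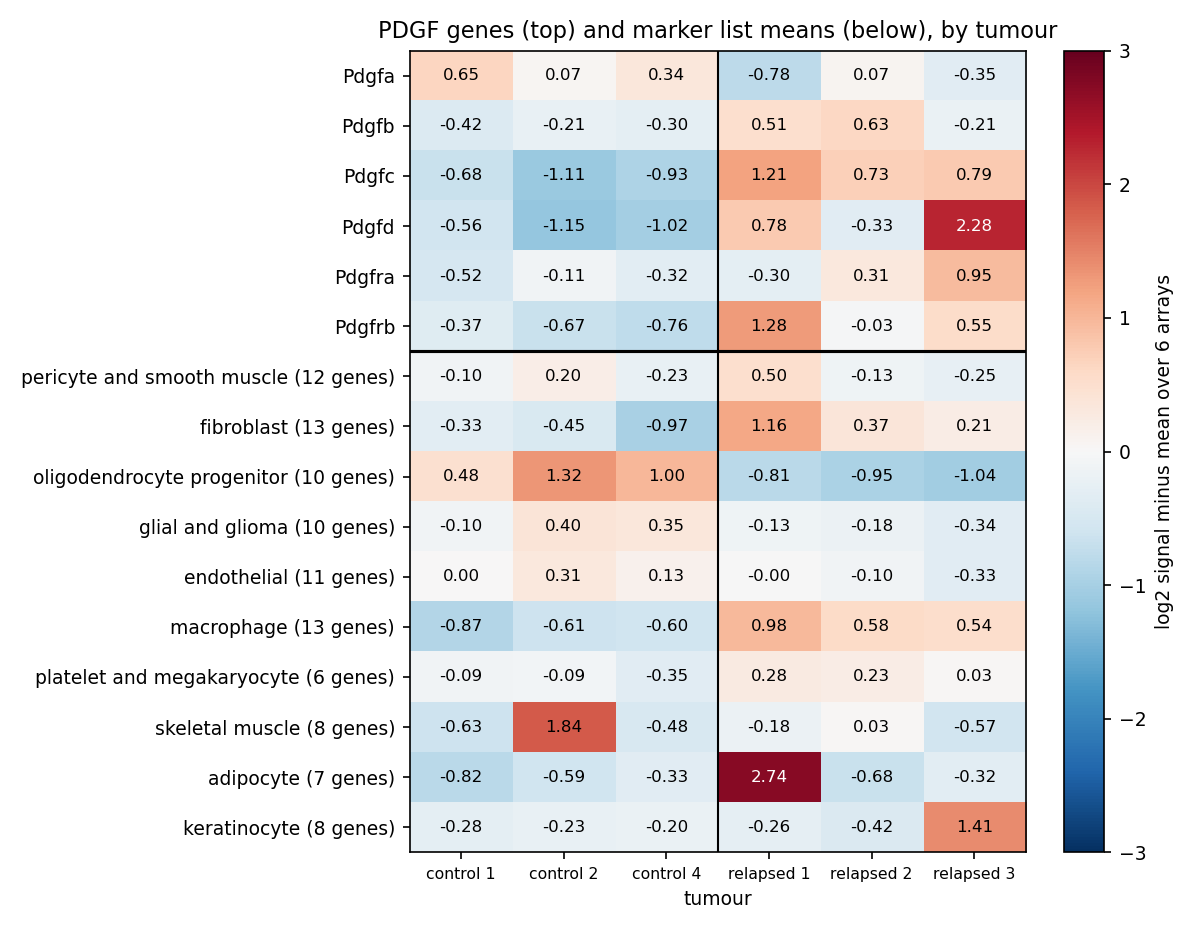
Log2 signal minus the mean over 6 arrays (colour and number) for each PDGF gene and, below the line, for the mean of each marker list, by tumour. Pdgfd peaks in relapsed 3 at 2.28, where keratinocyte markers stand at 1.41, and Pdgfrb peaks in relapsed 1 at 1.28, where adipocyte markers stand at 2.74.

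Over 5 lists of other genes of the pathway, 9 of 77 were called, or 11.7%, close to the 9.16% of all genes. Of 13 measured genes for ligand processing and retention, 1 rose and none fell, with a median difference of 0.01. This was Plau, the urokinase protease that can release active PDGF-D, at 1.16 ± 0.16 (SE, adjusted p = 0.0189). Its signal was 8.47, 8.64 and 8.91 in control 1, 2 and 4 and 10.05, 9.84 and 9.62 in relapsed 1, 2 and 3, with no overlap. With single arrays left out it kept the call only without relapsed 1 (0.0463), and the adjusted p reached 0.0666. Plat, the tissue plasminogen activator that activates PDGF-C, was chosen for mention after its values were seen. It had a difference of -0.48 ± 0.12 and an adjusted p of 0.0683 in limma.

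Of 21 adaptors and effectors that act downstream of the activated receptors, none rose and 3 fell, with a median difference of 0.00. Fyn, a Src family kinase, fell by 1.26 ± 0.23 (SE), Pik3r2, a regulatory subunit of PI3 kinase, by 0.52 ± 0.09 and Plcg1, phospholipase C gamma 1, by 0.39 ± 0.08, with adjusted p of 0.0329, 0.0300 and 0.0407 in limma. None of the 3 kept the call with any single array left out, with adjusted p of 0.0506 to 0.119, and Plcg1 also lost it with a trended robust prior (0.0689). Of 10 negative regulators 1 rose and 1 fell, with a median difference of -0.05. Rasa1, the Ras GTPase-activating protein that docks on PDGFR-beta, rose by 1.11 ± 0.14 (adjusted p = 0.0174). With single arrays left out it kept the call only without control 2 (0.0392) or relapsed 1, in a range up to 0.0605. Ptprj, a receptor phosphatase that acts on PDGFR-beta, fell by 0.51 ± 0.11 (adjusted p = 0.0438) and, with single arrays left out, kept the call only without relapsed 1 (0.0431), in a range up to 0.132. It is read by 2 probe sets, and with their mean the difference was -0.39 and the call was lost (adjusted p = 0.147), as it was with a trended robust prior (0.0517).

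Among 15 genes for receptors related to those of PDGF and for the ligands of these receptors, 2 rose and none fell, with a median difference of -0.11. Csf1r, the macrophage colony-stimulating factor receptor and a structural relative of the PDGF receptors, rose by 1.10 ± 0.23 (SE, adjusted p = 0.0486 in limma) and lost the call without any single array (0.0630 to 0.137). It is also on the macrophage marker list, so this call is counted in both lists. Vegfc, a lymphatic growth factor, rose by 0.62 ± 0.10 (adjusted p = 0.0266). With single arrays left out it kept the call only without relapsed 1 (0.0381), in a range up to 0.0950. Its control level of 6.35 lay near the median of probe sets with no gene, so its fold is uncertain. Among 18 early genes that growth factors such as PDGF induce, 1 fell and none rose, with a median difference of -0.16. Jun fell by 0.61 ± 0.12 (adjusted p = 0.0382). With single arrays left out it kept the call only without control 2 (0.0341), in a range up to 0.117. It also lost the call when all probe sets were tested.

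Genes whose profile over the 6 arrays was most like that of each PDGF gene were found by the root mean square difference of the centred log2 values, among 14803 genes above the median of probe sets with no gene. For Pdgfc these were Dcn, one of the fibroblast markers above, at 0.102 and Lilrb4a, on none of the marker lists, at 0.131. The root mean square of the Pdgfc profile itself was 0.927. For Pdgfrb they were Col6a2 (0.105) and Slc40a1 (0.110), for Pdgfa Mcat (0.0661) and Ppme1 (0.0940), and for Pdgfb Ccl19 (0.122) and Slc28a2 (0.130). For Pdgfra they were Tnfrsf22 (0.132) and Stk32b (0.148). Pdgfd had the largest distances, to Perp at 0.208 and Btc at 0.307, but its own profile had a root mean square of 1.2. That of Pdgfra was 0.495 and that of Pdgfb 0.409. A profile with larger changes gives larger distances, so these do not rank the PDGF genes by how close their neighbours are. Dcn and Lilrb4a had group differences of 1.85 and 1.84, near the 1.81 of Pdgfc. Which cells transcribed Pdgfc was not tested.

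**Figure D4:**
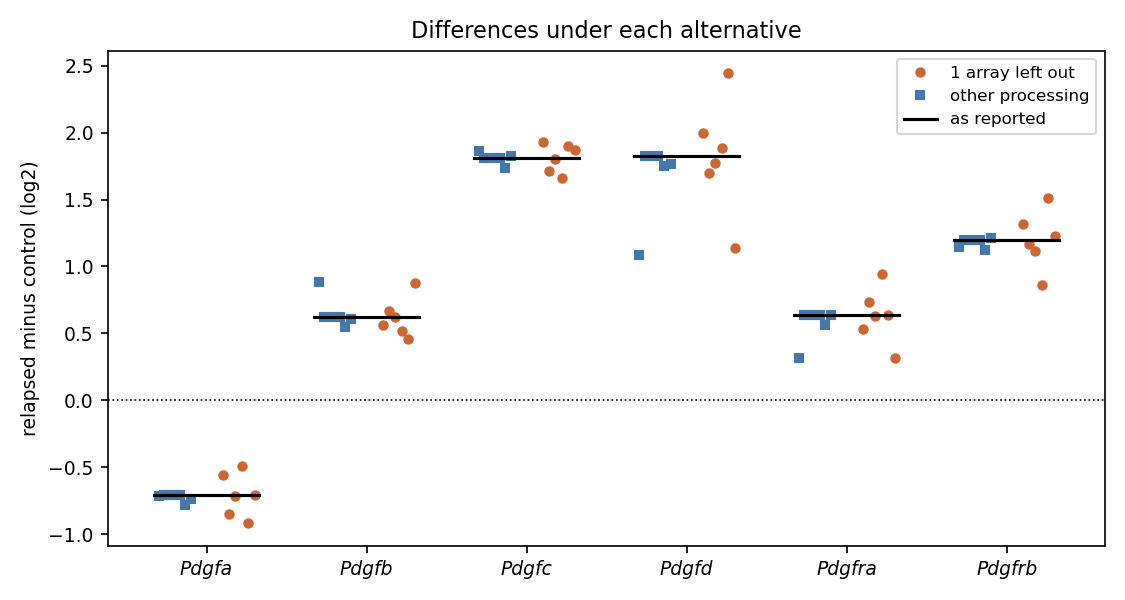
Difference in log2 signal between relapsed and control tumours (vertical axis) for each PDGF gene as reported (line), with 1 array left out (circles) and under other processing (squares). All values of Pdgfc lie between 1.66 and 1.93, and those of Pdgfd between 1.08 and 2.44.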

How the data were processed

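The authors deposited log2 signal per probe set, in a table whose arrays had nearly the same distribution (array medians 6.58 to 6.68). That it is log2 was judged from its range. Of the software, the submitters' processing notes give only affy; how background, scaling and summarization were handled is not given in the sources used here. Values were used as deposited, with no filter. Genes were named from the platform annotation, using the 21789 of 35556 probe sets with 1 symbol (1621 had several and 12146 none) and the highest-mean probe set per gene. limma (version 3.58.1, R 4.3.3; lmFit and eBayes; tested on simulated data) compared relapsed with control tumours, with 4 residual degrees of freedom, a prior of 1.53 and Benjamini-Hochberg adjustment over all genes. The number of arrays limits the precision. Of 183 listed pathway and marker genes 175 were measured. The members and lists were chosen with earlier results of these data known. Named genes were all members, up to 4 called genes with the largest change per pathway list, the 3 most abundant per marker list and the 2 closest profiles per member; other names are defining markers given as context or chosen after their values were seen. Alternatives were quantile normalization, median centring, a filter on dim genes, the mean of probe sets, a trended robust prior, all probe sets, a replicate block and leaving out each array.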

Additional observations from a re-analysis of the deposited data

How the results depend on the processing

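The differences of all 6 PDGF genes kept their sign under every alternative tried (13 each, and 12 for Pdgfd, which the filter on dim genes removed). Calls of the members changed in 4 fits. Pdgfrb passed with the dimmer 50% of genes left out (1.20), which made 2 PDGF genes risen. Pdgfb passed without relapsed 3, and Pdgfc was lost without control 4, so that 0 to 2 PDGF genes rose with single arrays left out. The labels share numbers 1 and 2 between groups, but the deviations of same-numbered tumours correlated at -0.337 and -0.248, so the number was not taken as pairing. With it as a replicate block, in which control 4 and relapsed 3 add nothing and 1 residual degree of freedom is left, limma called 0 genes in either direction, 0 of them PDGF genes, and 2199 at an unadjusted p under 0.05. Pdgfc was then 1.86 with an adjusted p of 0.394. The range with single arrays left out was 1.66 to 1.93 for Pdgfc, 1.14 to 2.44 for Pdgfd, 0.46 to 0.88 for Pdgfb, -0.92 to -0.49 for Pdgfa, 0.86 to 1.51 for Pdgfrb and 0.32 to 0.95 for Pdgfra. Over all genes the counts fell in these fits to 120 to 380 risen and 144 to 595 fallen, and median centring gave 1687 fallen. The difference of Pdgfc from Pdgfd turned sign with quantile normalization (0.057) and without control 2 (0.0098), control 4 (0.031) or relapsed 3 (0.73), in a range of -0.54 to 0.73 with single arrays left out. That of Pdgfra from Pdgfrb turned sign without relapsed 1 (0.086), in a range of -0.91 to 0.086. Pathway list counts moved by over 1.5 times in 30 counts with an array left out and in 6 with the block, all lower, and in 13 under other processing, 8 higher and 5 lower. Apart from the smaller number of arrays or the change in genes tested, the cause was not tested. Signal near background limits Pdgfd in control tumours.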

Other observations

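The genes named here belong to the pathway lists, did not pass the test and were chosen after their values were seen. Vegfd, a lymphatic growth factor that shares the cystine knot fold of the PDGF ligands, had signals of 6.54, 6.04 and 6.43 in control 1, 2 and 4 and 9.99, 8.09 and 7.89 in relapsed 1, 2 and 3. The groups did not overlap and relapsed 1 was highest, with a difference of 2.32 ± 0.59 (SE) and an adjusted p of 0.0709 in limma. Its control level of 6.33 lay near the median of probe sets with no gene, so its fold is uncertain. Pdgfrl, which encodes a secreted protein resembling the outer part of a PDGF receptor, was 8.30, 8.86 and 8.59 in control 1, 2 and 4 and 10.62, 9.05 and 9.38 in relapsed 1, 2 and 3. Relapsed 1 again stood highest, and the adjusted p was 0.181.

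Of the 18 early genes that growth factors induce, 5 had a higher and 13 a lower mean in relapsed tumours. That is 27.8% with a higher mean, against 44.9% of all genes. The chemokine genes Ccl2, first described as a PDGF-induced transcript of fibroblasts, and Ccl7, both also transcribed by macrophages, had differences of 1.23 ± 0.30 (SE) and 1.71 ± 0.41, with adjusted p of 0.0676 and 0.0639 in limma. Egr1 and Fosb, transcription factors of the immediate early response, had differences of -0.69 ± 0.21 and -0.51 ± 0.21, with adjusted p of 0.106 and 0.206. The groups overlapped for none of these 4 genes, which were picked with their values known. Groups without overlap were found for 9 of the 18 early genes and for 30.8% of all genes.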
